A study of Mus musculus with 6 samples.

Results

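The classical cadherins and their catenins form the adhesive core of the adherens junction. The 7 genes described here were taken by gene name from the deposited table of 54532 genes. They are the epithelial cadherin genes Cdh1 (E-cadherin) and Cdh3 (P-cadherin), the mesenchymal cadherin genes Cdh2 (N-cadherin) and Cdh11 (cadherin-11, also known as OB-cadherin), and the catenin genes Ctnnb1 (β-catenin), Ctnna1 (αE-catenin) and Ctnnd1 (p120-catenin). RNA was sequenced from 3 Zeb1Prx1 and 3 WT libraries of mouse Prx1-lineage stromal cells, grown from collagenase-digested chips of femur and tibia and sorted by a GFP signal. Zeb1Prx1 mice carried Prx1-Cre+, ROSA-YFP and Zeb1fl/fl alleles, and WT mice carried Prx1-Cre+, ROSA-YFP and Zeb1wt/wt alleles, so that the Cre and its reporter were shared by both genotypes. Prx1-Cre acts in limb mesenchyme, and all cells were untreated. Ages are not given in the labels used here, nor is it stated that each library stands for its own mouse or culture. The p-values below thus describe the scatter of these 6 libraries, part or all of which may be technical.

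Classical cadherins are calcium-dependent adhesion receptors that bind cadherins on the neighbouring cell. Their cytoplasmic tails hold p120-catenin, which keeps the cadherin at the cell surface, and β-catenin, which links to αE-catenin and through it to actin. β-catenin also serves as the transcriptional effector of Wnt signalling, so its transcript level does not by itself describe adhesion. Exchange of E-cadherin for N-cadherin is a hallmark of epithelial-mesenchymal transition, and Zeb1 is a zinc-finger repressor known for silencing Cdh1 in carcinoma and epithelial cells. Cadherin-11 and N-cadherin are the cadherins best known from osteoblasts and their stromal precursors.

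The libraries held between 14724357 and 18354894 assigned fragments. Zeb1, the targeted gene, had 1.92, 1.59 and 2.84 FPKM (fragments scaled by the length of the gene and the size of the library) in Zeb1Prx1 replicates 1, 2 and 3, against 6.61, 10.3 and 7.12 FPKM in WT replicates 1, 2 and 3. Of 10 skeletal stromal markers, 9 reached the filter described below, Prrx1 and Col1a1 among them, and Lepr was below it. The 10 summed to 2321 to 4527 FPKM in Zeb1Prx1 and 2016 to 2655 FPKM in WT libraries, with Col1a1 the largest part of each sum. Of the 9, 5 had a log2 change above 0 and 4 below. At an unadjusted p under 0.05 limma counted 0 higher, beside 8.15% of all tested genes. It counted 3 lower, Pdgfrb, Thy1 and Eng, beside 6.98%. All 12 macrophage markers also reached the filter, with sums of 9802 to 20435 FPKM in Zeb1Prx1 and 11843 to 14608 FPKM in WT libraries. Lyz2 was the largest part of each of these sums. In each library the macrophage sum was above the stromal sum, so the levels below cannot be assigned to stromal cells alone. In such bulk samples, fewer cells of a type and less RNA per cell cannot be told apart. Zeb1Prx1 replicate 2 had the highest FPKM sum. The summed level of 4 Y-linked genes (Ddx3y, Kdm5d, Eif2s3y and Uty) was 39.4, 44.6 and 27.5 FPKM in Zeb1Prx1 libraries and 15.6, 8.56 and 16.1 FPKM in WT libraries. Xist had 1.47, 0.00309 and 12.6 FPKM in Zeb1Prx1 and 26.8, 40.4 and 32.9 FPKM in WT libraries. The sex make-up of the libraries and the genotype can therefore not be told apart by comparing the groups.

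E-cadherin transcripts were scarce throughout, and the 3 Zeb1Prx1 libraries all lay above the 3 WT libraries. Cdh1 (ENSMUSG00000000303, mm10 chromosome 8, 106603351 to 106670246, plus strand) had 0.218, 0.437 and 0.301 FPKM in Zeb1Prx1 replicates 1, 2 and 3, against 0.0478, 0.0284 and 0.0569 FPKM in WT replicates 1, 2 and 3. These values rest on 16, 36 and 21 fragments in the mutant and on 4, 2 and 4 fragments in the WT libraries. The Zeb1Prx1 mean of 0.318 ± 0.111 FPKM was 7.17 times the WT mean of 0.0444 ± 0.0146 FPKM (SD, n = 3 each). The fragment totals of 73 and 10, scaled by the assigned fragments of each genotype, gave a fold of 6.96. Its exact 95% counting interval was 3.58 to 15.1, which covers counting error only. At this level Cdh1 remained below the filter on low values, which asked for at least 1 FPKM in at least 3 libraries. In a fit without the filter its log2 change was 0.33 (SE 0.07) on log2(FPKM + 1), and it did not pass over all genes (limma adjusted p = 0.421). The exact permutation test over the 6 libraries gave p = 0.1 (two-sided), the smallest value that 3 libraries against 3 can give.

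P-cadherin was the more abundant epithelial cadherin. Cdh3 (ENSMUSG00000061048, chromosome 8, 106510891 to 106557297, plus strand), whose product marks basal epithelial cells, had 6.71, 7.04 and 3.20 FPKM in Zeb1Prx1 libraries, against 2.02, 0.490 and 2.76 FPKM in WT libraries. All 3 mutant libraries lay above all 3 WT libraries, although Zeb1Prx1 replicate 3 exceeded WT replicate 3 by a small margin. The means were 5.65 ± 2.13 FPKM in Zeb1Prx1 and 1.76 ± 1.16 FPKM in WT (SD, n = 3 each), a fold of 3.21. The fitted log2 change was 1.31 (SE 0.40, 95% interval 0.36 to 2.27), with an unadjusted p of 0.0138 by limma. Over all genes Cdh3 did not pass (limma adjusted p = 0.275), and it ranked 627 by p among the 12534 genes tested. Without WT replicate 2, the library with the lowest Cdh3, the log2 change was 0.92. The unadjusted p was 0.0521 without Zeb1Prx1 replicate 2 and 0.0561 with library weights, by limma.

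N-cadherin overlapped between the genotypes. Cdh2 (ENSMUSG00000024304, chromosome 18, 16588877 to 16809246, minus strand) had 8.39, 9.44 and 4.09 FPKM in Zeb1Prx1 libraries, against 15.0, 6.49 and 6.01 FPKM in WT libraries. WT replicate 1 held the highest level and Zeb1Prx1 replicate 3 the lowest. The means were 7.31 ± 2.83 FPKM in Zeb1Prx1 and 9.17 ± 5.06 FPKM in WT libraries (SD, n = 3 each). The log2 change of -0.25 (SE 0.40, 95% interval -1.19 to 0.69) did not pass (limma adjusted p = 0.762), and its sign turned to 0.13 without WT replicate 1 and to 0.07 without Zeb1Prx1 replicate 3.

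Cadherin-11 was the main classical cadherin of these cells in every library. Cdh11 (ENSMUSG00000031673, chromosome 8, 102632095 to 102785642, minus strand) had 32.9, 27.4 and 31.0 FPKM in Zeb1Prx1 libraries, against 37.7, 29.3 and 56.8 FPKM in WT libraries. Zeb1Prx1 values lay close together, the WT range was wide, and the groups overlapped because WT replicate 2 fell within the mutant range. The log2 change was -0.38 (SE 0.25, 95% interval -0.97 to 0.21; limma adjusted p = 0.457), and it was -0.13 without WT replicate 3, the highest library. The means were 30.5 ± 2.79 FPKM in Zeb1Prx1 and 41.3 ± 14.1 FPKM in WT libraries (SD, n = 3 each), a fold of 0.738 that lay within the spread between libraries.

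**Figure D1:**
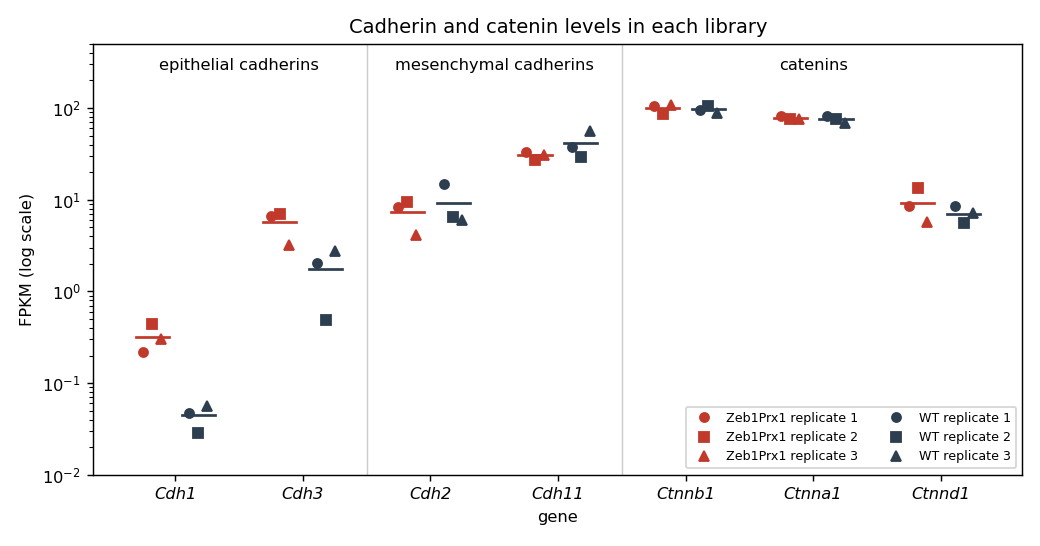
FPKM on a log axis for the 7 genes, with points for libraries (Zeb1Prx1 red and left, WT dark and right of each gene, shape by replicate number) and bars for group means. Cdh1 and Cdh3 do not overlap between the genotypes, with Cdh1 between 0.218 and 0.437 FPKM in Zeb1Prx1 and between 0.0284 and 0.0569 FPKM in WT, while the other 5 genes overlap. Of all tested genes, 24.4% did not overlap, counting both directions.

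The catenins overlapped between the genotypes. Ctnnb1 (ENSMUSG00000006932, chromosome 9, 120929216 to 120960507, plus strand) was the most abundant member, with 107, 87.0 and 107 FPKM in Zeb1Prx1 and 95.6, 107 and 89.1 FPKM in WT libraries. Its log2 change was 0.04 (SE 0.17, 95% interval -0.36 to 0.45; limma adjusted p = 0.908). Ctnna1 (ENSMUSG00000037815, chromosome 18, 35118888 to 35254773, plus strand) had 82.5, 76.5 and 76.7 FPKM in Zeb1Prx1 and 82.9, 76.8 and 68.5 FPKM in WT libraries. Its log2 change was 0.05 (SE 0.15, 95% interval -0.31 to 0.41; limma adjusted p = 0.883). For both genes the groups overlapped, and the sign of either change turned under another scaling, to -0.13 for Ctnnb1 and -0.12 for Ctnna1 with libraries set to an equal FPKM sum, a scaling that put the median log2 change of all tested genes at -0.12, against 0.02 as deposited.

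p120-catenin was the least abundant of the 3 catenin members. Ctnnd1 (ENSMUSG00000034101, chromosome 2, 84600071 to 84650765, minus strand) had 8.50, 13.5 and 5.71 FPKM in Zeb1Prx1 libraries, against 8.51, 5.62 and 7.09 FPKM in WT libraries. Zeb1Prx1 replicate 2 stood above the rest and the other libraries of both genotypes were intermixed. The log2 change was 0.29 (SE 0.29, 95% interval -0.41 to 0.98; limma adjusted p = 0.627), and without Zeb1Prx1 replicate 2 it was -0.000238.

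Zeb1 binds DNA at E-box elements with the letters CACCTG or the shorter CACCT, and start-site sequences were searched for both on both strands. RefSeq promoter entries of 300 bases (250 before and 50 after the start, GRCm38.p6) were matched for 2 of the 7 members, Ctnnb1 and Ctnnd1, with a pair of start sites each. The Ctnnb1 windows, from 120933150 and 120933328, overlap each other and lie inside the gene as listed from 120929216. The windows are thus not all separate, and a difference from the share of all entries was not tested. CACCTG, which contains CACCT, was in none of these 4 windows, and 20.2% of all 32851 promoter entries hold it. CACCT was in 1 of them, 2 times, and 51.9% of all entries hold it. The first 120 bases of that entry, the downstream start of Ctnnd1, are shown because they hold the only matches among the members' entries (chr2:84650871-84650990, minus strand, with CACCT in capitals).
Ctnnd1: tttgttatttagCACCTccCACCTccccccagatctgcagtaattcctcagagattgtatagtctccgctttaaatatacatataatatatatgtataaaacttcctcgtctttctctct
A match is a description of letters and not a bound site, and the level of Ctnnd1 overlapped between the genotypes.

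**Figure D2:**
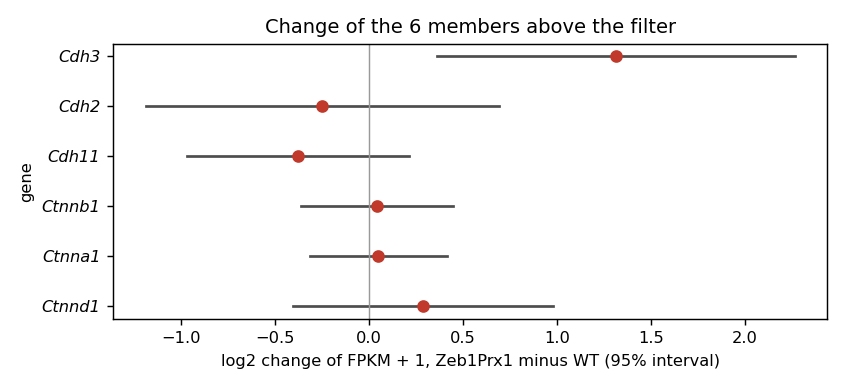
Log2 change of FPKM + 1, Zeb1Prx1 minus WT, for the 6 members above the filter, with points for estimates and lines for 95% intervals from limma. The interval of Cdh3 (0.36 to 2.27) lies above 0 and those of the other 5 genes include 0.

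By limma, 0 of the 6 tested members passed over all genes, as did 0% of the 12534 genes tested. The smallest adjusted p of any gene was 0.22 by limma. Zeb1, the targeted gene, did not pass either (log2 change -1.53, SE 0.22, limma adjusted p = 0.229). Not passing therefore does not show that a level was unchanged. At an unadjusted p under 0.05 limma counted 1 member, Cdh3, where 8.15% of all tested genes were higher and 6.98% lower at that level. Voom on recovered fragments also called 0 members over all genes and gave Cdh3 a log2 change of 1.87 (adjusted p = 0.288). Of all 7 members, 2 did not overlap between the genotypes, Cdh1 and Cdh3, both higher in Zeb1Prx1. Among all tested genes, 12.6% were higher without overlap and 11.8% lower without overlap, 24.4% in either direction. Cdh1, below the filter, is not among those tested genes.

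FPKM is per gene length, so levels can be set in order between genes. In both genotypes the order of means began with Ctnnb1, Ctnna1 and Cdh11, which did not overlap with one another within a genotype. Below them, Ctnnd1 averaged 9.23 ± 3.94 FPKM and Cdh2 7.31 ± 2.83 FPKM in Zeb1Prx1, and their ranges overlapped, as did those of 7.07 ± 1.45 FPKM for Ctnnd1 and 9.17 ± 5.06 FPKM for Cdh2 in WT libraries. Cdh3 overlapped with Cdh2 in Zeb1Prx1 (3.20 to 7.04 against 4.09 to 9.44 FPKM). In WT libraries Cdh3 lay below Cdh2 without overlap (0.490 to 2.76 against 6.01 to 15.0 FPKM). Cdh1 was lowest in all 6 libraries.

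The make-up of the cadherin transcripts was read within each library, which no scaling of whole libraries can alter. Of the summed FPKM of the 4 cadherins, Cdh1 and Cdh3 together held 14.4%, 16.9% and 9.05% in Zeb1Prx1 libraries, against 3.77%, 1.43% and 4.29% in WT libraries. The means were 13.4 ± 3.99% in Zeb1Prx1 and 3.16 ± 1.53% in WT (SD, n = 3 each), a difference of 10.3 percentage points, and no mutant library overlapped with a WT library. Nearly all of that share was Cdh3, since Cdh1 held 0.451% to 0.985% in Zeb1Prx1 and 0.0784% to 0.0872% in WT libraries. Cdh11 remained the largest part in every library, with 61.8% to 80.4% in Zeb1Prx1 and 68.8% to 86.6% in WT. No test was made of these shares, because the members were chosen with earlier results known.

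**Figure D3:**
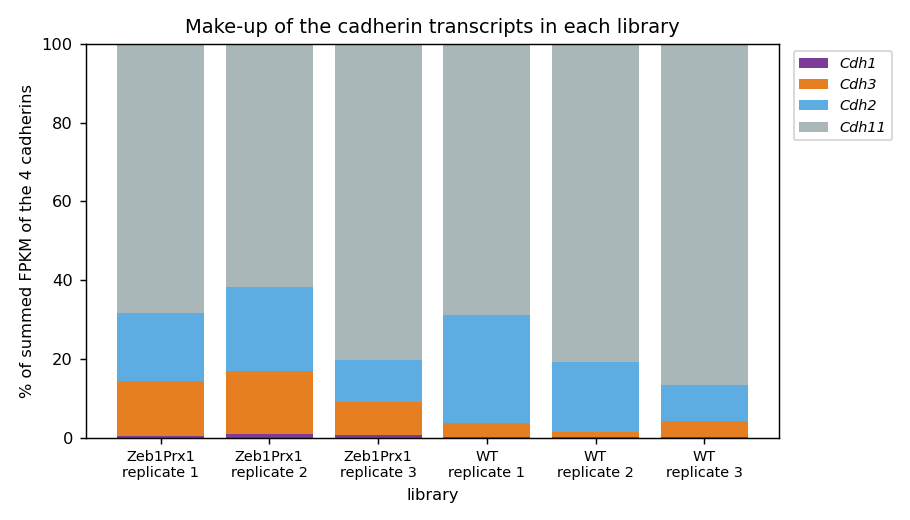
Stacked bars give the percentage of the summed FPKM of 4 cadherin genes held by each gene in each library, Zeb1Prx1 left and WT right. Cdh3 and Cdh1 together reach 9.05% to 16.9% in Zeb1Prx1 and 1.43% to 4.29% in WT libraries, and Cdh11 is the largest part in all 6.

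The ratio of P-cadherin to N-cadherin was nearly constant in the mutant. In FPKM, Cdh3 was 0.801, 0.745 and 0.781 times Cdh2 in Zeb1Prx1 libraries, against 0.135, 0.0754 and 0.460 times in WT libraries. The ratio varied little in Zeb1Prx1 although both genes were lowest in replicate 3, while in WT replicate 3 was far above the other libraries. The ratios of Cdh3 to the other cadherins were not constant in the mutant. Cdh3 was 0.204, 0.257 and 0.103 times Cdh11 and 30.8, 16.1 and 10.6 times Cdh1 in Zeb1Prx1 replicates 1, 2 and 3. A link between Cdh3 and Cdh2 was not tested. The summed level of the 4 cadherins was 48.2, 44.3 and 38.6 FPKM in Zeb1Prx1 and 54.8, 36.3 and 65.7 FPKM in WT libraries, so that the groups overlapped. Ctnnb1 stood at 2.21, 1.96 and 2.77 times that sum in Zeb1Prx1 and at 1.75, 2.94 and 1.36 times in WT libraries, which also overlapped. The ratio of Ctnnb1 to Ctnna1 was 1.28 ± 0.131 in Zeb1Prx1 and 1.28 ± 0.119 in WT libraries.

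Within each genotype, the order of P-cadherin by library ran opposite to that of Zeb1 except for WT replicates 1 and 3. Zeb1 was lowest in Zeb1Prx1 replicate 2 (1.59 FPKM), where Cdh3 was highest (7.04 FPKM), and highest in WT replicate 2 (10.3 FPKM), where Cdh3 was lowest (0.490 FPKM). Zeb1Prx1 replicate 3 had the most Zeb1 of its genotype (2.84 FPKM) and the least Cdh3 (3.20 FPKM). WT replicates 1 and 3, the exception, had 6.61 and 7.12 FPKM of Zeb1. Cdh1 was also highest in Zeb1Prx1 replicate 2 and lowest in WT replicate 2, but Zeb1Prx1 replicate 1, with less Zeb1 than replicate 3, had less Cdh1 too (0.218 against 0.301 FPKM). In WT libraries Cdh1, like Cdh3, was higher in replicate 3 than in replicate 1. A relation to Zeb1 within the genotypes was not tested.

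The order of Cdh3 over the 6 libraries was also exactly that of the summed Y-linked genes given above. With the mean log2 level of those 4 genes as a covariate, an alternative chosen after seeing the data, the log2 change of Cdh3 reversed to -0.95 (SE 0.35, 95% interval -1.81 to -0.10; limma adjusted p = 0.57). In the same fit the log2 change was 0.27 for Cdh1, -1.16 for Cdh11 and -1.56 for Cdh2. The covariate itself separates the genotypes, so for Cdh3 the genotype and the sex make-up of the libraries cannot be told apart.

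**Figure D4:**
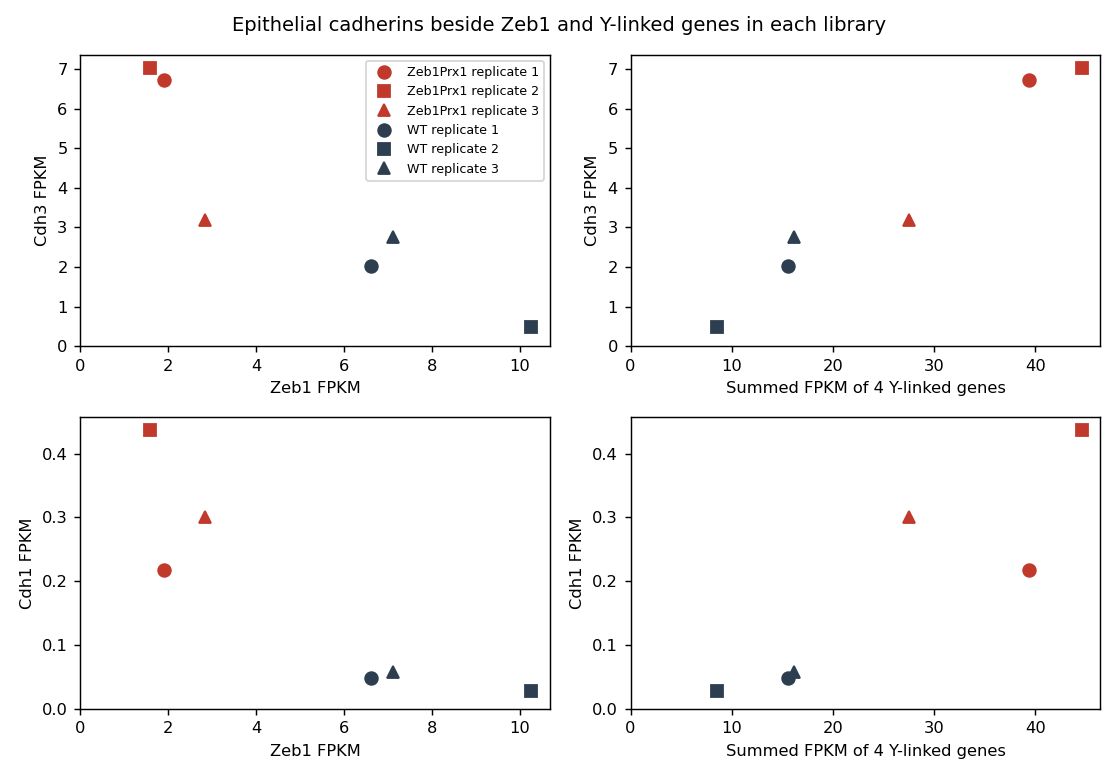
Cdh3 (top) and Cdh1 (bottom) in FPKM against Zeb1 FPKM (left) and the summed FPKM of 4 Y-linked genes (right), 1 point per library, with Zeb1Prx1 red and WT dark. Cdh3 runs from 7.04 FPKM in Zeb1Prx1 replicate 2 down to 0.490 FPKM in WT replicate 2, while Zeb1 runs from 1.59 to 10.3 FPKM and the Y-linked sum from 44.6 to 8.56 FPKM in those libraries.

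Markers of other cell types were set beside the epithelial cadherins. Of 10 epithelial markers, Epcam, Krt8, Krt14 and Cldn3 were listed at 0 in all WT libraries. In Zeb1Prx1, 3 (Epcam, Krt8 and Krt18) were higher without overlap, beside 12.6% of all tested genes, and these 3 were below the filter. The summed level of the 10 was 8.79, 13.3 and 19.0 FPKM in Zeb1Prx1 and 19.2, 0.757 and 1.16 FPKM in WT libraries, the WT replicate 1 value being almost all Krt19. Krt8, singled out after its values were seen, was highest in Zeb1Prx1 replicate 3 (15.2 FPKM) and lowest of the mutant in replicate 2 (0.652 FPKM), where Cdh1 and Cdh3 were at their highest. Krt18 had 0.693, 2.12 and 1.55 FPKM and Krt19 had 1.21, 10.3 and 0.353 FPKM in Zeb1Prx1 replicates 1, 2 and 3, so that both were highest in replicate 2. Krt5, Cldn7 and Ocln did not exceed 0.0669 FPKM in any library.

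Markers of skeletal and blood lineages were read in the same way. The 6 chondrocyte markers summed to 543, 146 and 2322 FPKM in Zeb1Prx1 and 12.7, 201 and 153 FPKM in WT libraries, with 4 higher without overlap. Of these 4, Col9a1 was below the filter and listed at 0 in all WT libraries. The WT replicate 2 and 3 sums were almost all Comp (195 and 144 FPKM), which overlapped between the genotypes. Col2a1, among the 4, had 383, 60.0 and 1175 FPKM in Zeb1Prx1 and 5.32, 1.17 and 4.38 FPKM in WT libraries. The 6 osteoblast markers summed to 142, 90.7 and 27.2 FPKM in Zeb1Prx1 and 42.7, 33.9 and 21.1 FPKM in WT libraries, with 1 higher without overlap. Among the 12 macrophage markers, 4 were lower without overlap and 0 higher in Zeb1Prx1, with a median log2 change of -0.35. Of all tested genes, 12.6% were higher and 11.8% lower without overlap. Osteoclast and endothelial markers stayed at summed levels of at most 6.22 and 2.95 FPKM. The part of these cell types in the cadherin values was not tested. With the macrophage mean as a covariate, Cdh3 had a log2 change of 1.81 (limma adjusted p = 0.167) and Ctnnd1 one of 0.96 (limma adjusted p = 0.176).

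Cdh3 and Cdh1 are neighbours on mm10 chromosome 8 in the same orientation, with 46054 bases between the end of Cdh3 and the start of Cdh1. A window of 500000 bases on either side, drawn after the members' values were seen, held 24 other protein-coding genes. Of these, 17 were tested, 0 passed over all genes and 0 had an unadjusted p under 0.05 by limma, with a median log2 change of 0.07 against 0.02 for all tested genes. Without overlap, 2 were lower in Zeb1Prx1, Nfatc3 and Cyb5b, named after their values were seen, and 0 were higher. Of all tested genes, 11.8% were lower and 12.6% higher without overlap, and 15.1% had an unadjusted p under 0.05 by limma.

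Other genes overlapped the members in the table at very low levels. For 5 of the members, Cdh2, Cdh11, Ctnnb1, Ctnna1 and Ctnnd1, the table lists overlapping genes, of which Ulk4 at Ctnnb1 reached the highest level, 0.373 FPKM. Use of strand in counting is not given in the sources used here, so fragments of such genes may have been counted with the members. Cdh1 and Cdh3 had no overlapping gene in the table.

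The genes whose pattern over the 6 libraries was most like that of Cdh3 were Uros, a heme synthesis enzyme, Cercam, and Twnk, the mitochondrial DNA helicase, with Pearson correlations of 0.991, 0.984 and 0.982 among 11129 other protein-coding genes. Uros had 4.18, 4.30 and 3.61 FPKM in Zeb1Prx1 and 2.96, 2.27 and 3.17 FPKM in WT libraries. Those most like Cdh11 were Ppp4r3a, Phf11b and Zfp54, at 0.982, 0.978 and 0.977, and Ppp4r3a lay between 4.30 and 5.00 FPKM. With only 6 libraries, split by genotype, likeness of this size is a description and carries no p.

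Most of the other cadherins were nearly silent. Of 17 further type I, type II and related cadherin genes, 1 reached the filter, Cdh13 (T-cadherin, which lacks a cytoplasmic tail), and 15 stayed below 1 FPKM in every library. Cdh13, named as the single tested gene, had 0.776, 0.326 and 3.30 FPKM in Zeb1Prx1, against 0.973, 6.80 and 1.30 FPKM in WT libraries, with overlap and a log2 change of -0.60 (SE 0.63; limma adjusted p = 0.634). Below the filter, 2 genes were lower without overlap, beside 11.8% of all tested genes. These were Cdh6, with 3 fragments in Zeb1Prx1 and 14 in WT libraries, and Cdh18, with 9 in Zeb1Prx1 and 48 in WT libraries. Cdh7, Cdh8 and Cdh12 were listed at 0 in all libraries. Cdh5, the endothelial cadherin, did not exceed 0.0528 FPKM.

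Among 8 other catenin-related genes, 5 were tested and 0 passed over all genes. By limma, 1 had an unadjusted p under 0.05, beside 15.1% of all tested genes. That gene, Arvcf, a relative of p120-catenin, had 3.40, 2.88 and 3.89 FPKM in Zeb1Prx1, against 1.64, 2.69 and 1.94 FPKM in WT libraries, without overlap (log2 change 0.51, SE 0.18; limma adjusted p = 0.297). The count was 0 with libraries set to an equal FPKM sum, with the replicate block, with the macrophage covariate, and without Zeb1Prx1 replicate 1, Zeb1Prx1 replicate 3 or WT replicate 3. The list median was 0.17, beside 0.02 for all tested genes. Below the filter, 2 genes were lower without overlap, Ctnna2 with 16 fragments in Zeb1Prx1 and 56 in WT libraries, and Ctnnd2 with 19 fragments in Zeb1Prx1 and 134 in WT libraries. Of all tested genes, 12.6% were higher and 11.8% lower without overlap. Jup (plakoglobin, which takes the place of β-catenin in some junctions) was named for its role after its values were seen and had 5.73 ± 0.683 FPKM in Zeb1Prx1 and 5.22 ± 2.28 FPKM in WT libraries.

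Genes that couple the cadherin complex to actin and to nectins had log2 changes mostly below 0. Of 14 adherens junction partners, 13 were tested, 11 had a log2 change below 0, the list median was -0.21, and 0 passed over all genes. Of all 12534 tested genes, 6034 had a log2 change below 0. At an unadjusted p under 0.05 limma counted 3 partners lower and 1 higher, beside 6.98% and 8.15% of all tested genes. Without overlap between the genotypes, 5 partners were lower and 1 higher, beside 11.8% and 12.6% of all tested genes. Iqgap1, a scaffold that binds β-catenin and actin, had 34.4, 21.1 and 24.1 FPKM in Zeb1Prx1, against 46.4, 43.1 and 36.0 FPKM in WT libraries, without overlap (log2 change -0.66, SE 0.21). Vcl (vinculin, recruited to αE-catenin under tension) had 23.0, 6.69 and 13.7 FPKM in Zeb1Prx1, against 27.0, 23.7 and 25.7 FPKM in WT libraries, also without overlap (log2 change -0.92, SE 0.38). The nectin gene Nectin1 had 3.39 ± 0.171 FPKM in Zeb1Prx1 and 4.56 ± 0.169 FPKM in WT.

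The member on the higher side was Ajuba, a LIM protein that binds αE-catenin. It had 15.9, 14.9 and 16.9 FPKM in Zeb1Prx1, against 11.3, 9.69 and 8.79 FPKM in WT libraries, with no overlap and little spread within either genotype (log2 change 0.64, SE 0.14; limma adjusted p = 0.259). The adjusted p of the 3 genes that were lower at an unadjusted p under 0.05 was 0.286 to 0.326 by limma. The most abundant partners, the α-actinin genes Actn1 and Actn4, had 59.6 ± 18.4 and 59.2 ± 8.13 FPKM in Zeb1Prx1, against 75.5 ± 23.2 and 68.9 ± 14.3 FPKM in WT libraries, with overlap. The count of partners at an unadjusted p under 0.05 was 0 with the Y-linked covariate, 1 without Zeb1Prx1 replicate 3, WT replicate 1 or WT replicate 2, and 2 without WT replicate 3.

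Of the 8 genes of cadherin processing and turnover, all tested, 7 had a log2 change below 0, against 6034 of all 12534 tested genes, and Ptprm had one of 0.19. The median was -0.22, and 0 passed over all genes. By limma, 2 were lower at an unadjusted p under 0.05, beside 6.98% of all tested genes. Adam10, the metalloprotease that sheds cadherin ectodomains, had 31.0, 24.2 and 28.7 FPKM in Zeb1Prx1, against 37.4, 39.9 and 34.8 FPKM in WT libraries (log2 change -0.41, SE 0.15; limma adjusted p = 0.302). Numb, an endocytic adaptor, had 11.5 ± 1.41 FPKM in Zeb1Prx1 and 15.2 ± 1.16 FPKM in WT (limma adjusted p = 0.31). Neither gene overlapped between the genotypes. Of the 8, 3 were lower and 0 higher without overlap, beside 11.8% and 12.6% of all tested genes. The count of turnover genes at that level was 0 with the Y-linked covariate, with the replicate block, and without Zeb1Prx1 replicate 3 or any of the WT libraries.

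The β-catenin destruction complex, which marks β-catenin for degradation, showed no gene at an unadjusted p under 0.05 among the 5 of 6 tested by limma. Of all tested genes, 15.1% were at that level. The median log2 change of the complex was -0.05. Csnk1a1, its priming kinase, had 33.8 ± 3.08 FPKM in Zeb1Prx1 and 31.4 ± 1.17 FPKM in WT libraries. Axin2, a feedback target of β-catenin in Wnt signalling named after its values were seen, remained below the filter with 0.825, 0.353 and 0.369 FPKM in Zeb1Prx1 and 0.417, 0.520 and 0.154 FPKM in WT libraries.

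**Figure D5:**
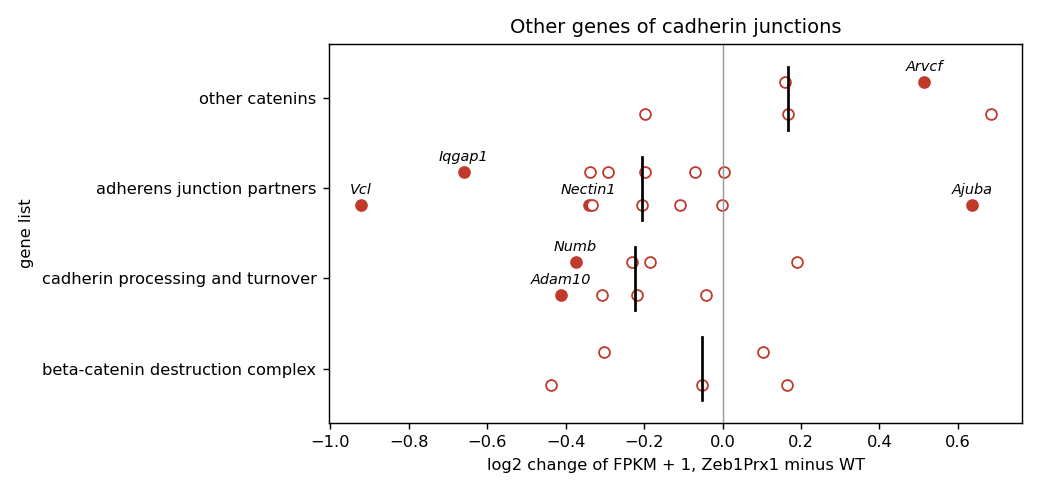
Log2 change of FPKM + 1, Zeb1Prx1 minus WT, for tested genes of 4 lists around the cadherin complex. Each circle is a gene, filled and named at an unadjusted p under 0.05 by limma, and black lines are list medians, which lie at 0.17, -0.21, -0.22 and -0.05 from top to bottom. None of these genes passed over all genes.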

How the data were processed

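The 7 members, the gene lists and the tests were chosen with earlier results of these data known. Paired-end reads of 150 bp were made on an Illumina Novaseq, per the labels' protocols, and mm10 is the genome build named in the submitters' processing notes. For aligner, counter and strand setting, nothing is given in the sources used here. The authors deposited FPKM per gene for 6 libraries with gene lengths. Multiplied by gene length and divided by the smallest increment of a library, FPKM came out as whole fragment numbers (relative tolerance 1e-06).

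The main test was limma 3.58.1 (R 4.3.3) with an intensity trend on log2(FPKM + 1), Zeb1Prx1 minus WT, for 12534 genes with at least 1 FPKM in at least 3 libraries. P-values were adjusted by Benjamini-Hochberg over all of them, with a threshold of 0.05. The pseudocount makes changes of low genes look smaller. Alternatives were pseudocounts of 0.1 and 0.5, no filter, 2 scalings, the replicate number as a block, voom on fragments, library weights, a macrophage covariate and leaving out each library. A covariate of 4 Y-linked genes was added after seeing the data. By rule, the named genes were the members, Zeb1, up to 5 genes per list at an unadjusted p under 0.05 and the 3 genes most like Cdh3 and Cdh11, and list genes of at least 20 FPKM could be named for their level. Other cadherins, catenins, markers and neighbours were named after their values were seen.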

Additional observations from a re-analysis of the deposited data

How the results depend on the processing

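No tested member passed over all genes under any alternative run. Cdh3 kept its direction in 15 alternatives, 0.92 to 1.87 on the log2 scale and 0.92 to 1.62 without 1 library, and reversed to -0.95 with the Y-linked covariate (limma adjusted p 0.167 to 0.57 over the 16). Cdh11 was lower in all 16 (-0.59 to -0.13 without 1 library, -1.16 with the Y-linked covariate, under which Cdh2 was at -1.56). Cdh1 was higher in all those run (0.27 to 0.39 without 1 library), at 1.51 and 0.58 with pseudocounts of 0.1 and 0.5 and 0.48 with the macrophage covariate. Voom, library weights and median-of-ratios scaling were not run for Cdh1. Reversed values were 0.0452 for Cdh2 (macrophage covariate). For Ctnnb1 they were -0.13 (equal FPKM sum), -0.0117 (voom) and -0.21 (macrophage covariate), and for Ctnna1 -0.12, -0.00602 and -0.0411 in the same fits. For Ctnnd1 they were -0.0609 (library weights) and -0.91 (Y-linked covariate). Without 1 library each, Cdh2 ran from -0.46 to 0.13, Ctnnb1 from -0.0166 to 0.14, Ctnna1 from -0.0239 to 0.11 and Ctnnd1 from -0.000238 to 0.55. The epithelial share difference was 8.55 to 12.5 percentage points without 1 library. Genes past the threshold numbered 447 with library weights and 0 to 1 without 1 library (1 without Zeb1Prx1 replicate 2). Those at an unadjusted p under 0.05 numbered 1897 in the main test, 3866 with weights, 3245 with the macrophage covariate, 1016 with the Y-linked covariate and 1118 to 2821 without 1 library. The cause of these shifts was not tested. Deviations from the group means in same-numbered libraries had correlations of 0.0289, -0.413 and 0.0798 between the genotypes. Such values cannot exclude a shared culture or batch. With the replicate block, Cdh3 had 1.31 (limma adjusted p = 0.443) and 0 genes passed, so no call changed. Depth limits Cdh1, at 2 to 36 fragments per library.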
